A study of Mus musculus with 12 samples.

Results

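Synaptic vesicle and release machinery was examined as 48 presynaptic genes in the prefrontal cortex of mice, out of 55401 gene identifiers in the deposited tables. The genes were taken by symbol from a list of 48 names, and all 48 were found and were among the 18289 genes with enough counts to test. The animals were C57BL/6J males, 14 weeks old at collection. An adeno-associated virus (AAV) had been given bilaterally in the dorsomedial prefrontal cortex 4 weeks earlier, and 12 libraries form 3 groups of 4. The overexpression group had received OE-Ttr-GFP, in which the CAG promoter drives green fluorescent protein (GFP) and, through a P2A peptide, the transthyretin gene Ttr, with WPRE and bgH elements. The knockdown group had received KD-Ttr-GFP, in which the U6 promoter drives the short hairpin RNA Ttr-shRNA-2 and CAG drives GFP, with a WPRE3 element. The control group had received pAAV.1-CAG-GFP, so GFP and the surgery are common to all 3 groups, as is a chow containing vitamin B12. The CAG promoter is active in many cell types and U6 drives small RNAs, so neither promoter limits expression to neurons. The share of cells that took up virus is not given in the sources used here. Both Ttr vectors came from one supplier and the control vector from another, so the supplier and the groups cannot be told apart. The labels number the samples of a group and do not tie them to separate mice, so each p-value reflects sample-to-sample spread that may be partly technical.

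A nerve terminal stores transmitter in synaptic vesicles that are clustered near the release site, docked and primed at the active zone, fused with the membrane when calcium enters, and then retrieved by endocytosis. Fusion is driven by SNARE proteins on the vesicle and the plasma membrane, triggered by calcium-binding synaptotagmins and adjusted by complexins. Most of these proteins come in families whose members differ between cell types and brain regions, so their transcripts also carry information on which neurons a piece of tissue holds.

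The libraries held 19879629 to 37166146 counts, and the lowest count of any of the 48 genes in any library was 176. In replicate order, here and throughout, Ttr had 20940, 8527, 7263 and 2121 counts in overexpression, 3, 47, 29 and 13 in knockdown, and 14, 200, 18 and 18 in control libraries. The overexpression label was borne out in all 4 libraries, while these low counts overlapped between knockdown and control and give no check of the knockdown label. Markers of cortical excitatory neurons (10 of 10) and of interneurons (9 of 9) were present in every library. All 12 of 12 markers of striatal projection neurons were also present, with summed levels of 269 to 1499 CPM in overexpression, 255 to 1326 CPM in knockdown and 303 to 1178 CPM in control libraries, where CPM is counts brought to one common library size with TMM factors. Markers of vessel wall and meninges (12 of 12 present) summed to 246 to 356 CPM in overexpression, 194 to 229 CPM in knockdown and 166 to 229 CPM in control libraries, so the overexpression range lay above both others.

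No gene of the 48 passed the test in any comparison. By edgeR's quasi-likelihood test with Benjamini-Hochberg adjustment over all genes tested, 0 of 48 passed an adjusted p of 0.05 in each of the 3 comparisons, in either direction. In each comparison 1 gene of the 18289 passed (0.00547%), Ttr in overexpression against control and in overexpression against knockdown, and the nuclear receptor gene Nr4a1 in knockdown against control. At an unadjusted p below 0.05, edgeR found 1 of 48 (2.08%) in overexpression against control, beside 6.26% of all genes tested. It found 2 of 48 (4.17%) in knockdown against control, beside 5.68%, and 1 of 48 (2.08%) in overexpression against knockdown, beside 5.1%. DESeq2 passed 0 of 48 in each comparison. In the same order of comparisons it had 3, 2 and 3 below the unadjusted threshold, beside 5.87%, 5.12% and 4.27% of all genes. By limma-voom 0 passed, and 0, 2 and 2 were below that threshold, beside 5.23%, 5.16% and 4.76% of all genes. The edgeR counts depended on overexpression replicate 2. Without it, edgeR had 13 of 48 (27.1%) below the unadjusted threshold in overexpression against control, all lower in overexpression, beside 11.9% of all genes. The counts without it were 6 of 48 (12.5%) in knockdown against control, beside 6.67%, and 4 of 48 (8.33%) in overexpression against knockdown, beside 6.46%. The lowest adjusted p of the 48 was then 0.107, in overexpression against control. With any other single library left out the counts were 0 to 2, 1 to 3 and 0 to 3 in the same order. The shares of all genes were then 3.89% to 8.38%, 4.11% to 7.16% and 3.48% to 6.01%. In a fit to the knockdown and control libraries alone, 10 of 48 (20.8%) were below the unadjusted threshold, 8 of them lower in knockdown, beside 6.99% of all genes. Such fits gave 2 of 48, beside 6.18%, in overexpression against control and 1 of 48, beside 4.31%, in overexpression against knockdown.

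The fitted log2 differences of the 48 genes ran from -0.56 to 0.49 in overexpression against control, from -0.71 to 0.58 in knockdown against control and from -0.31 to 0.52 in overexpression against knockdown. Their median log2 difference was -0.06 in overexpression against control and -0.06 in knockdown against control, beside 0.0038 and 0.0047 over all genes tested, and these comparisons share their control libraries. In overexpression against knockdown it was 0.0024, beside 0.0002 over all genes. Below 0 lay 35 of 48 in overexpression against control (48.6% of all genes), 35 of 48 in knockdown against control (48.2%) and 24 of 48 in overexpression against knockdown (49.9%). Without overexpression replicate 2 the median was -0.12 in overexpression against control and -0.05 in overexpression against knockdown. In knockdown against control it was -0.09, -0.04 and -0.03 without knockdown replicates 1, 3 and 4. On the deposited TPM, with limma on log2(TPM + 1), the median in overexpression against control was -0.02. In that fit 29 of 48 (60.4%) lay below 0, beside 30.8% of all genes. With the vessel wall and meningeal score of each library as a covariate, the median in overexpression against control was 0.022. In that fit 18 of 48 (37.5%) lay below 0, beside 46.0% of all genes. The score lay wholly higher in overexpression than in both other groups. This fit and the gene values given with it below therefore cannot tell score and overexpression vector apart. With the striatal score as a covariate instead, the median was -0.064, with 33 of 48 (68.8%) below 0, beside 48.7% of all genes. Both covariates were chosen after seeing the data. In bulk tissue the make-up of the tissue and the level per neuron cannot be told apart. These fits do not separate them, and the part of either in the medians was not tested.

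Markers of the cell types in the tissue were set beside these medians, and 0 markers of the lists named here passed by edgeR. Of 10 pan-neuronal markers, 8 were below 0 in overexpression against control (median log2 difference -0.06) and 8 in knockdown against control (-0.05). Their summed levels were 5293 to 6115 CPM in overexpression, 5388 to 5677 CPM in knockdown and 5419.6 to 5945 CPM in control libraries, so the groups overlapped. The 10 cortical excitatory markers had medians of -0.18 and -0.11 in the same comparisons, with sums of 5634 to 7268 CPM in overexpression, 5818 to 7671 CPM in knockdown and 6347 to 7067 CPM in control libraries. Their score, the mean of centred log2 CPM, was -0.083 to 0.0631 in knockdown and 0.0645 to 0.141 in control libraries. By that score control lay just above the knockdown range, while overexpression (-0.298 to 0.0801) overlapped both. The 9 interneuron markers went the other way, with medians of 0.09 and 0.03 and 7 above 0 in each comparison. The 6 astrocyte markers had medians of 0.15 and 0.16, with 6 and 4 above 0. All 8 oligodendrocyte and myelin markers were below 0 in both, with medians of -0.29 and -0.47. All 6 microglial markers (medians 0.21 and 0.20) and all 5 endothelial markers (0.19 and 0.24) were above 0 in both. The 12 vessel wall and meningeal markers had medians of 1.08 and 0.24, and the 12 striatal markers of 0.37 and 0.20. Lymphocyte markers (3 of 5 tested) summed to 3.40 to 75.7 CPM in overexpression, 1.21 to 3.88 CPM in knockdown and 0.868 to 3.02 CPM in control libraries. No marker of these lists was at 0 counts in any library, and the part of these cell types in the values of the 48 genes was not tested.

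The intervals show what size of change the libraries could have hidden. In overexpression against control, the 95% interval lay within a 1.5-fold change in either direction for 43 of 48 genes. In knockdown against control it did so for 42, and in overexpression against knockdown for 41. The intervals that reached beyond 1.5-fold belonged in all 3 comparisons to Cplx3, Doc2b, Sv2c, Syt2 and Syt6, joined by Vamp1 in knockdown against control and by Syt17 and Vamp1 in overexpression against knockdown. Changes of 1.5-fold therefore lay inside the intervals of these genes.

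**Figure D1:**
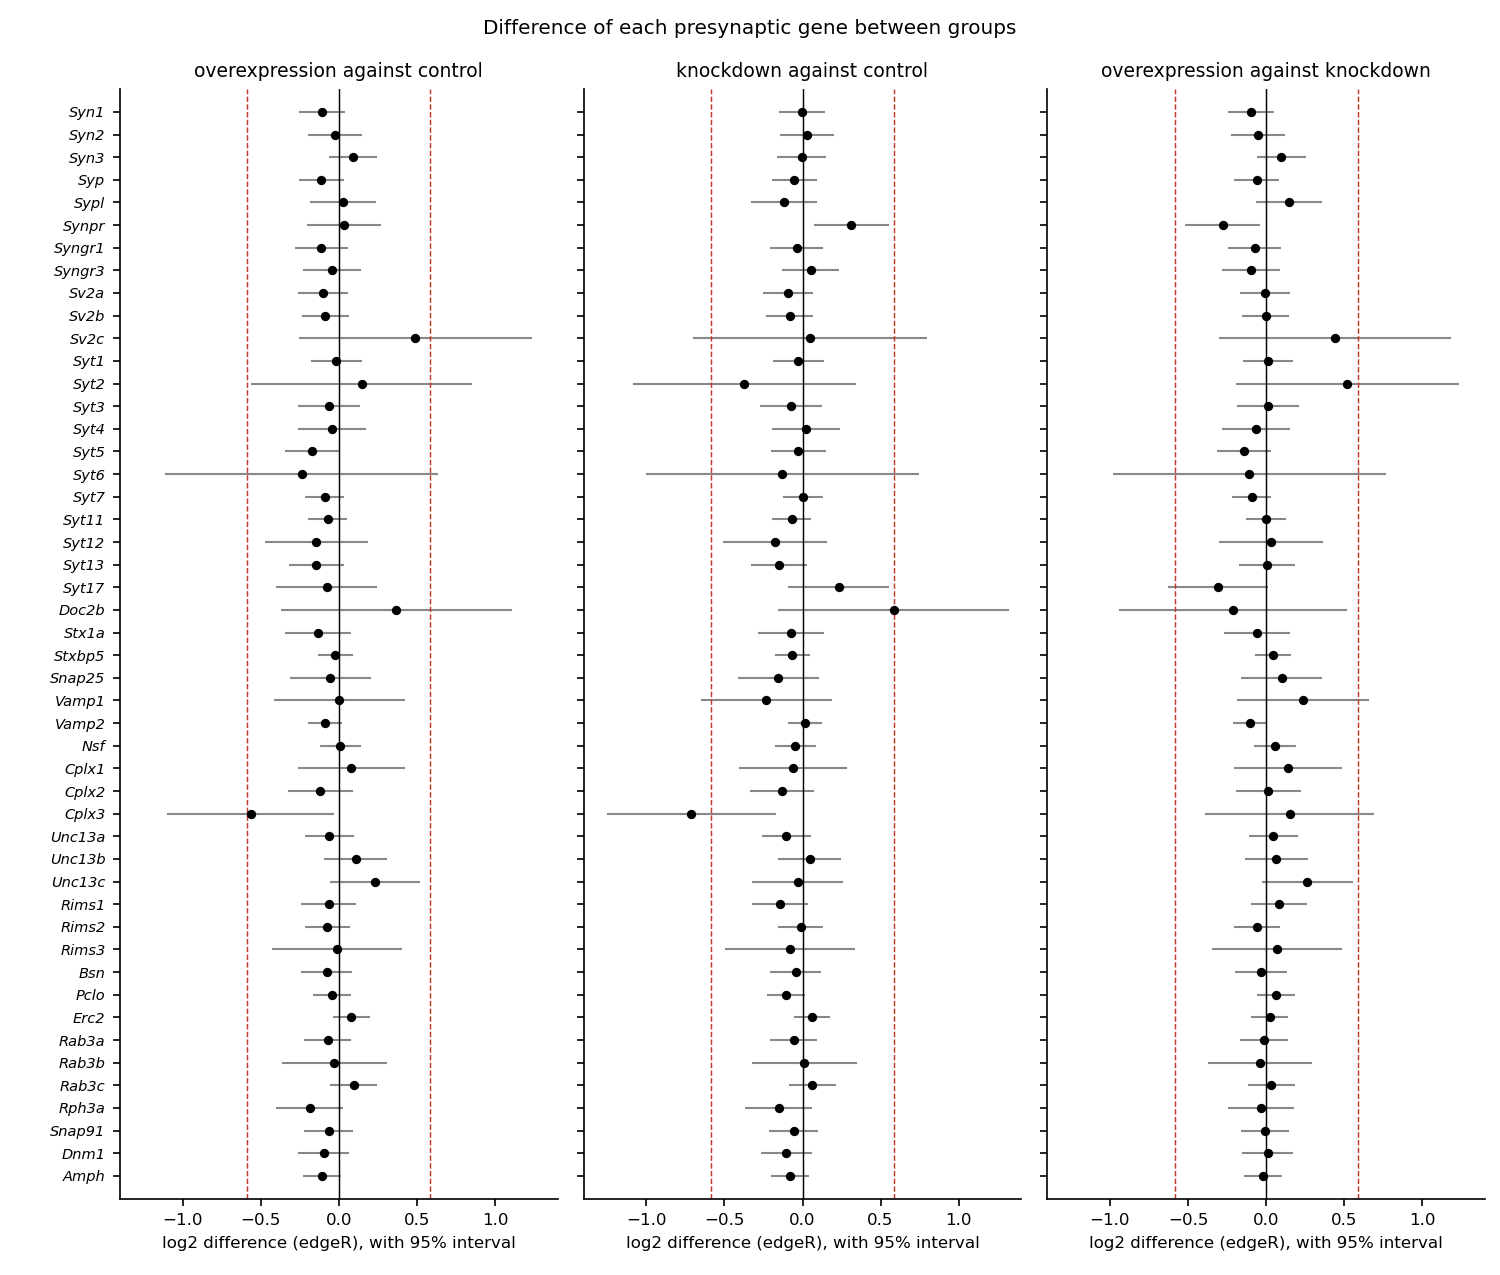
Fitted log2 difference of each of the 48 genes (points) with its 95% interval (bars) in overexpression against control, knockdown against control and overexpression against knockdown, from edgeR; red dashed lines mark a 1.5-fold change. Most intervals lie between the dashed lines and span 0, and the wide ones belong to Sv2c, Syt2, Syt6, Doc2b and Cplx3.

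Levels, given as deposited TPM (counts per gene length, scaled to the same total in each library, mean ± SD over 12 libraries), spanned from 7.18 ± 0.535 for Syn3 to 3655 ± 479 for Snap25. The median of the 48 means was 172 TPM, against 14.3 TPM over all genes tested, and 44 of 48 lay above that figure. The most abundant after Snap25 were Syp (1458 ± 76.2 TPM), Vamp2 (1389 ± 48.9 TPM), Syt1 (1032 ± 68.8 TPM) and Dnm1 (827 ± 56.9 TPM). The least abundant after Syn3 were Sv2c (8.93 ± 4.23 TPM), Unc13c (9.56 ± 1.75 TPM), Syt2 (11.3 ± 4.62 TPM) and Doc2b (15.2 ± 6.53 TPM). Together the 48 genes summed to 17782 ± 1408 TPM in overexpression, 17249 ± 974 TPM in knockdown and 18018 ± 456 TPM in control libraries (SD, n = 4 each). The highest sum was in overexpression replicate 2 and the lowest in knockdown replicate 4.

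**Figure D2:**
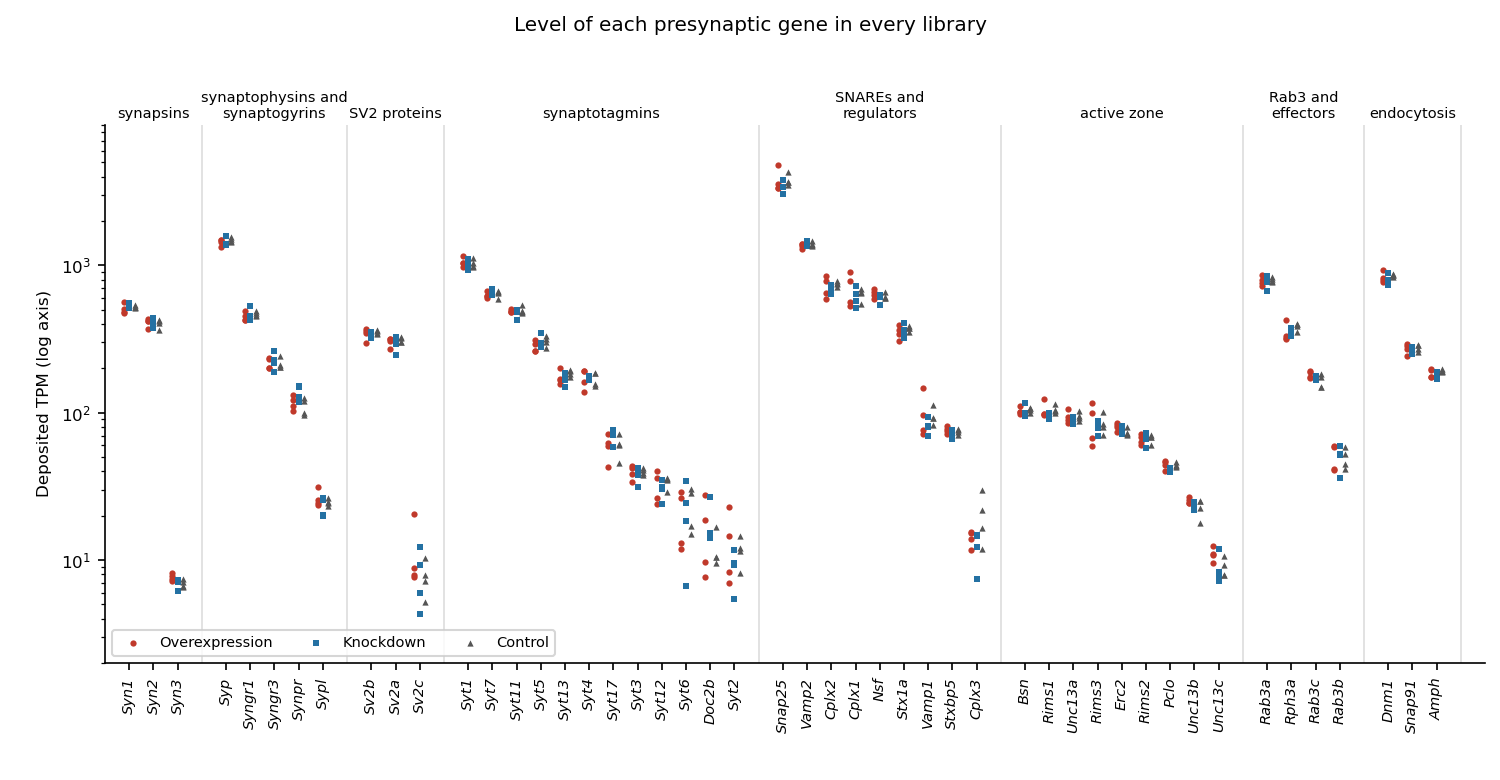
Deposited TPM (log axis) of each of the 48 genes in all 12 libraries, ordered by family and by mean level; circles, squares and triangles are overexpression, knockdown and control libraries. Snap25 is highest at a mean of 3655 TPM, most families have one or a few abundant members, and the points of the 3 groups lie over each other for most genes.

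Promoter windows of 36 of the 48 genes were found among RefSeq sequences on GRCm38.p6, covering 250 bases before and 50 after each start. Syn3, Syngr3, Syt4, Syt5, Syt7, Syt12, Syt13, Syt17, Doc2b, Snap25, Vamp2 and Rims2 were not matched. The GC box GGGCGG, bound by Sp1 and its relatives, stood on either strand in 29 of 36 (80.6%), against 38.2% of all genes in the table and 65.6% of those among the genes tested. GCGNGGGCG, the Egr motif, which can overlap a GC box, stood in 7 of 36 (19.4%), against 6.27% and 11.9%. TGACGTCA, the cyclic AMP response element bound by CREB, stood in 1 of 36 (2.78%), against 2.03% and 3.37%. TTCAGCACC, one side of the element bound by the neuronal gene repressor REST, stood in 2 of 36 (5.56%), Syn1 and Unc13a, against 0.433% and 0.525%. A match is a description of the letters and not evidence of binding. The 250 bases before the start are shown for Syn1, the window with both TTCAGCACC and TGACGTCA, and for Syt2, Vamp1 and Cplx1, which were high in the same library; capitals mark TTCAGCACC, TGACGTCA and the GC box or its reverse complement.
Syn1, chrX:20920919-20921168, minus strand: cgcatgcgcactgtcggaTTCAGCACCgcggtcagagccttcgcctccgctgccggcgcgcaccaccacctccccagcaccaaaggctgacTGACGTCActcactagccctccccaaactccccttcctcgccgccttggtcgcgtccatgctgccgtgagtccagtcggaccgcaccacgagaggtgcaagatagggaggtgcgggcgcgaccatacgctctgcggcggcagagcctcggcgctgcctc
Syt2, chr1:134646362-134646611, plus strand: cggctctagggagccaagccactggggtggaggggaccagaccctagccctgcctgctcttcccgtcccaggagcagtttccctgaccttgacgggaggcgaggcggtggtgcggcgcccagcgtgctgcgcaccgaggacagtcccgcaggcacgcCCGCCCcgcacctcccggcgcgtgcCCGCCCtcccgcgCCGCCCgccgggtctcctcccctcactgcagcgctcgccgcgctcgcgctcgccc
Vamp1, chr6:125215331-125215580, plus strand: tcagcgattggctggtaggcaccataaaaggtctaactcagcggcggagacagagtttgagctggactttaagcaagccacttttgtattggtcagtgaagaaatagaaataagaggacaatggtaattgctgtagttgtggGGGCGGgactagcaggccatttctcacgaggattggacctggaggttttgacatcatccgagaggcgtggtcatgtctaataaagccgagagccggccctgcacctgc
Cplx1, chr5:108550028-108550277, minus strand: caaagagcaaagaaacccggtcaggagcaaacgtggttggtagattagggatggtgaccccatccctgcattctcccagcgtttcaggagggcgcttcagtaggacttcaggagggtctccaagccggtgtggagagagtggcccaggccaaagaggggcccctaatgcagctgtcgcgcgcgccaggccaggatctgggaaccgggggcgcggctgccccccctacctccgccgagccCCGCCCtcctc

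Synapsins coat vesicles and hold them in the reserve cluster. Syn1 had 519 ± 27.2 TPM, Syn2 408 ± 24.6 TPM and Syn3 7.18 ± 0.535 TPM, and Syn1 exceeded Syn2 in 12 of 12 libraries. Syn3 had 12.3, 11.9, 11.3 and 11.9 CPM in overexpression, 11.8, 11.3, 11.01 and 10.4 CPM in knockdown and 10.6, 12.1, 10.6 and 11.3 CPM in control libraries. The 3 groups overlapped. Syn3 shares 1733 exon bases with Timp3 on the other strand, which had 29804 counts over all libraries against 3685 for Syn3, and Syn1 shares 9 exon bases with Araf. How reads were assigned to strands is not given in the sources used here, so the level of Syn3 in particular is uncertain.

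Synaptophysin, its relatives and the synaptogyrins are membrane-spanning proteins of the vesicle. Syp had 1409, 1530.0, 1347 and 1459 CPM in overexpression, 1656, 1415, 1384 and 1533 CPM in knockdown and 1535, 1606, 1467 and 1608 CPM in control libraries. Its ranges overlapped, and the log2 difference between overexpression and control was -0.11 ± 0.07 (SE; edgeR adjusted p = 0.843), and 0.071 with the vessel wall and meningeal score as a covariate. Synpr, a relative enriched in particular sets of neurons and their terminals, showed the widest separation of this family. The gene (ENSMUSG00000056296) spans chr14:13284780-13616340, plus strand, in GENCODE on GRCm38. It had 119, 105, 133 and 109 CPM in overexpression, 122, 152, 128 and 163 CPM in knockdown and 129.8, 105, 121 and 98.98 CPM in control libraries. Knockdown replicates 2 and 4 were above every other library, while knockdown replicates 1 and 3 lay within the range of the others. The log2 difference of Synpr was 0.31 ± 0.11 in knockdown against control (edgeR adjusted p = 0.808) and -0.28 ± 0.11 in overexpression against knockdown (edgeR adjusted p = 0.967). Sypl, a relative found widely outside neurons, had 48.3, 47.1, 61.03 and 46.6 CPM in overexpression, 40.3, 51.3, 49.2 and 42.5 CPM in knockdown and 47.1, 54.2, 48.6 and 49.3 CPM in control libraries, with overexpression replicate 3 highest of all. Syngr1 (460.4 ± 32.2 TPM) and Syngr3 (219 ± 21.4 TPM) had log2 differences between -0.11 and 0.05 over the 3 comparisons.

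SV2 proteins are transporter-like glycoproteins of the vesicle. Sv2b (343 ± 20.6 TPM) was above Sv2a (304 ± 23.7 TPM) in 11 of 12 libraries, with a ratio of means of 1.13. Sv2c, known for its high level in basal ganglia, had 30.3, 28.7, 27.3 and 71.1 CPM in overexpression, 21.7, 33.1, 42.96 and 16.4 CPM in knockdown and 18.9, 29.4, 25.9 and 37.4 CPM in control libraries. Overexpression replicate 4 was the highest of all libraries, and without it the overexpression libraries lay inside the knockdown range. The log2 difference of Sv2c between overexpression and control was 0.49 ± 0.34, with a 95% interval of -0.25 to 1.23.

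Many synaptotagmins bind calcium, and Syt1 and Syt2 trigger fast release while Syt7 acts in slower phases. Syt1 was the most abundant of the 11 on the list, at 34.8 ± 1.60% of their summed TPM, followed by Syt7 (21.5 ± 0.88%) and Syt11 (16.4 ± 0.805%; SD, n = 12). Syt1 had 1899, 2207, 1954 and 1808 CPM in overexpression, 2055, 2069, 1792 and 1893 CPM in knockdown and 2001, 1957, 2147 and 1848 CPM in control libraries, with full overlap. Syt5 had 205, 181, 180.2 and 194 CPM in overexpression, 243, 192, 201 and 205 CPM in knockdown and 211, 226, 190.1 and 229.5 CPM in control libraries. Overexpression replicates 2 and 3 were below every control library, and replicates 1 and 4 lay within the control range. For Syt5 the log2 difference was -0.17 ± 0.08 in overexpression against control (edgeR adjusted p = 0.805) and -0.14 ± 0.08 in overexpression against knockdown (edgeR adjusted p = 0.974). Under the vessel wall and meningeal covariate, which cannot be told apart from the overexpression vector, both turned above 0, to 0.070 and 0.018.

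Syt7 had 429, 416, 409.7 and 390.0 CPM in overexpression, 473, 416, 409.9 and 455 CPM in knockdown and 459, 413, 435 and 443 CPM in control libraries, and its log2 difference between overexpression and knockdown was -0.09 ± 0.06 (edgeR adjusted p = 0.974). Syt13, a relative that does not bind calcium, had 237, 302, 232 and 243 CPM in overexpression, 281, 245, 249 and 235 CPM in knockdown and 275, 269.5, 290.3 and 285 CPM in control libraries. In Syt13 overexpression replicate 2 was the highest library of all, while the other 3 overexpression libraries lay below every control library. Its log2 difference was -0.14 ± 0.08 in overexpression against control (edgeR adjusted p = 0.842) and -0.15 ± 0.08 in knockdown against control (edgeR adjusted p = 0.897), and the overexpression value was 0.0030 under the same covariate. Syt17 had 74.4, 47.4, 64.4 and 65.6 CPM in overexpression, 85.02, 63.5, 75.9 and 87.8 CPM in knockdown and 80.3, 51.6, 67.2 and 66.4 CPM in control libraries. Replicate 2 was the lowest library of its group for Syt17 in all 3 groups, and the log2 difference in overexpression against knockdown was -0.31 ± 0.15 (edgeR adjusted p = 0.974).

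Syt2, Syt6 and Doc2b varied more between libraries of one group than between groups. Syt2, which takes the place of Syt1 in many fast-firing neurons including parvalbumin interneurons, had 18.3, 62.8, 22.4 and 38.2 CPM in overexpression, 25.7, 31.7, 25.4 and 15.9 CPM in knockdown and 22.7, 34.1, 39.6 and 31.4 CPM in control libraries. Overexpression replicate 2 stood above all others, and the log2 difference between overexpression and knockdown of 0.52 ± 0.33 (edgeR adjusted p = 0.974) was 0.08 without it. Syt6 had 44.2, 22.9, 20.5 and 48.8 CPM in overexpression, 32.5, 59.2, 41.7 and 12.3 CPM in knockdown and 30.4, 51.5, 26.02 and 53.01 CPM in control libraries, and its SD within groups was the largest of the 48 at 0.734 on the log2 scale. Doc2b, a soluble calcium sensor that binds SNAREs and acts in spontaneous release, had 30.9, 13.3, 16.5 and 46.4 CPM in overexpression, 26.1, 23.95, 44.9 and 27.9 CPM in knockdown and 18.4, 17.2, 18.02 and 28.98 CPM in control libraries. Its highest libraries were overexpression replicate 4 and knockdown replicate 3. The log2 difference of Doc2b between knockdown and control was 0.58 ± 0.34, with a 95% interval of -0.15 to 1.32 (edgeR adjusted p = 0.9), and without knockdown replicate 3 it was 0.33. The log2 differences of Syt3, Syt4, Syt11 and Syt12 lay between -0.18 and 0.03 over the 3 comparisons.

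Among the fusion machinery, Snap25 and Stx1a are the SNAREs of the plasma membrane, Vamp1 and Vamp2 those of the vesicle, Nsf takes spent SNARE complexes apart, and Stxbp5 (tomosyn) holds SNAREs in inactive complexes. Snap25 had 2661, 4052, 2947 and 2687 CPM in overexpression, 2895, 3155, 2765 and 2707 CPM in knockdown and 3108, 3197, 3569.8 and 2953 CPM in control libraries. Overexpression replicate 2 was the highest library for Snap25, and the other 3 overexpression libraries were below the lowest control library. Vamp2 had 1163, 1227, 1112 and 1134 CPM in overexpression, 1289, 1233, 1211 and 1254 CPM in knockdown and 1230.2, 1253, 1180.2 and 1271 CPM in control libraries. It varied least of the 48, with a within-group SD of 0.0497 on the log2 scale, and its log2 difference was -0.09 ± 0.05 in overexpression against control (edgeR adjusted p = 0.836) and -0.11 ± 0.05 in overexpression against knockdown (edgeR adjusted p = 0.974). Under the vessel wall and meningeal covariate the difference between overexpression and control was 0.037. The log2 differences of Nsf, Stxbp5 and Stx1a lay between -0.13 and 0.06 over the 3 comparisons.

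Complexins bind assembled SNAREs, where they hold back spontaneous fusion and promote fusion evoked by calcium. Cplx2 (718 ± 71.8 TPM) exceeded Cplx1 (647 ± 116 TPM) in 10 of 12 libraries, and Cplx3, found in retinal ribbon synapses and in subplate neurons at the base of the cortex, was far lower at 15.5 ± 5.69 TPM. Cplx3 (ENSMUSG00000039714) spans chr9:57599992-57606281, minus strand, in GENCODE on GRCm38. It had 16.5, 15.8, 13.1 and 16.9 CPM in overexpression, 14.1, 16.3, 16.4 and 8.98 CPM in knockdown and 19.1, 35.1, 13.4 and 24.8 CPM in control libraries. Control replicates 1, 2 and 4 were above every overexpression and knockdown library, and control replicate 3 fell among them. The log2 difference of Cplx3 was -0.56 ± 0.25 in overexpression against control (edgeR adjusted p = 0.792) and -0.71 ± 0.25 in knockdown against control (edgeR adjusted p = 0.808), and both rest on the same controls. With the vessel wall and meningeal score as a covariate, which cannot be told apart from the overexpression vector, the overexpression difference turned to 0.16. Without control replicate 2 these differences were -0.29 and -0.44, and without control replicate 3 they were -0.76 and -0.91. Control replicate 2 also had the highest summed level of 8 oligodendrocyte and myelin markers, 9403 CPM, and knockdown replicate 4, lowest in Cplx3, the lowest at 2397 CPM, against 3781 to 6928 CPM in the other 10 libraries. The part of these markers in the Cplx3 values was not tested.

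At the active zone, Unc13 proteins prime vesicles, Rims proteins tether them to calcium channels, and Bsn, Pclo and Erc2 form the scaffold. Unc13a held 73.3 ± 1.94% of the summed Unc13a, Unc13b and Unc13c TPM (SD, n = 12), although it shares 495 exon bases with Colgalt1 on the other strand, which had 16029 counts against 121107 for Unc13a. Unc13c, best known from the cerebellum, had 36.5, 33.1, 37.1 and 41.7 CPM in overexpression, 27.9, 28.3, 40.2 and 26.6 CPM in knockdown and 28.04, 33.6, 27.4 and 37.2 CPM in control libraries. Knockdown replicate 3 and control replicates 2 and 4 reached into the overexpression range. The log2 difference was 0.23 ± 0.13 in overexpression against control (edgeR adjusted p = 0.842) and 0.26 ± 0.13 in overexpression against knockdown (edgeR adjusted p = 0.974).

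Ranges of CPM that did not overlap were counted as a further description. No gene of the 48 was without overlap in overexpression against control, where 1.88% of all genes lay wholly higher and 0.837% wholly lower, nor in overexpression against knockdown (1.23% and 1.14%). In knockdown against control 0 of 48 lay wholly higher (2.78% of all genes) and 3 of 48 wholly lower (1.33%), namely Cplx2, Rims1 and Pclo. Rims1 had 235, 314, 246 and 242 CPM in overexpression, 252, 249, 236 and 245 CPM in knockdown and 266, 274, 291 and 254 CPM in control libraries. Pclo had 354, 375, 345 and 308 CPM in overexpression, 338, 325, 327 and 334 CPM in knockdown and 356, 355, 369 and 344 CPM in control libraries. In both, the knockdown libraries were tightly grouped just under the control range and overexpression replicate 2 was the highest library. The log2 difference in knockdown against control was -0.15 ± 0.08 for Rims1 (edgeR adjusted p = 0.899) and -0.10 ± 0.06 for Pclo (edgeR adjusted p = 0.897). Cplx2, chosen after its values were seen, had 1215, 1531, 1135 and 1592 CPM in overexpression, 1421, 1268, 1394 and 1340.4 CPM in knockdown and 1424, 1503, 1491 and 1518 CPM in control libraries, and its highest knockdown library lay just under its lowest control library.

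**Figure D3:**
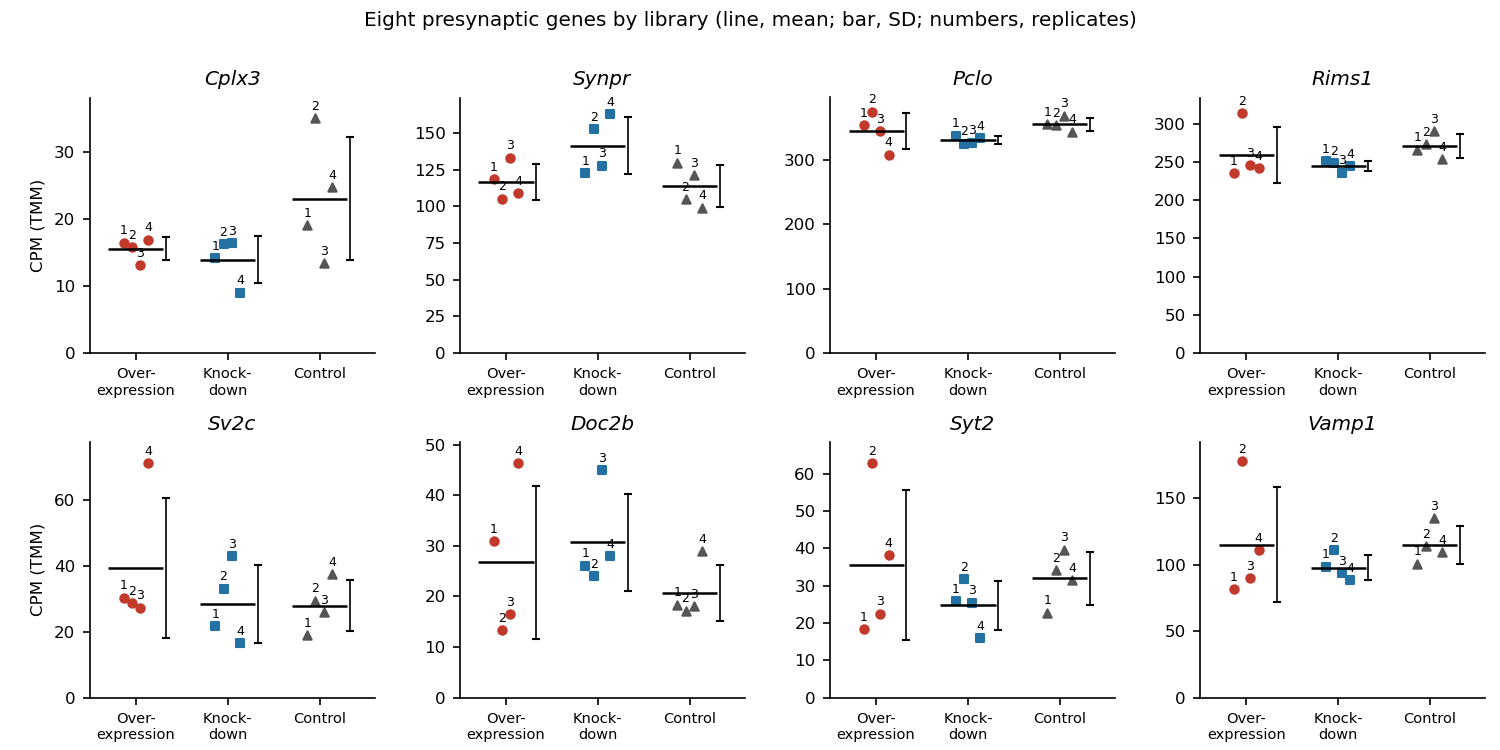
CPM (TMM-scaled) of Cplx3, Synpr, Pclo, Rims1, Sv2c, Doc2b, Syt2 and Vamp1 in every library, numbered by replicate, with group means (lines) and SD (bars, n = 4 each). Pclo and Rims1 are lower in all 4 knockdown than in all 4 control libraries, Synpr is highest in knockdown replicates 2 and 4, and single libraries stand out in Sv2c, Syt2 and Vamp1.

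Rab3 GTPases sit on docked vesicles, and Rph3a (rabphilin) binds them. Rab3a held 77.9 ± 1.55% of the summed Rab3a, Rab3b and Rab3c TPM (SD, n = 12). Rph3a had 517, 704, 513 and 509.5 CPM in overexpression, 622, 557, 532 and 585 CPM in knockdown and 585, 679.9, 629.7 and 656 CPM in control libraries. Overexpression replicates 1, 3 and 4 were below all 8 other libraries, and overexpression replicate 2 was above them. For Rph3a the log2 difference was -0.19 ± 0.10 in overexpression against control (edgeR adjusted p = 0.836) -0.31 without overexpression replicate 2, and 0.055 with the vessel wall and meningeal covariate. In knockdown against control it was -0.15 ± 0.10 (edgeR adjusted p = 0.912).

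Endocytosis was represented by the membrane-cutting GTPase Dnm1, its partner Amph and the clathrin adaptor Snap91. Dnm1 had 1159.8, 1394, 1163 and 1101 CPM in overexpression, 1332, 1159, 1141 and 1157 CPM in knockdown and 1258, 1343, 1271 and 1275 CPM in control libraries. Amph had 252, 259, 228 and 223 CPM in overexpression, 256, 241, 238 and 241 CPM in knockdown and 258, 272, 254 and 251 CPM in control libraries. In both genes overexpression replicate 2 and knockdown replicate 1 were the highest of their groups and lay above the lowest control library. In Amph the log2 difference between overexpression and control was -0.11 ± 0.06 (edgeR adjusted p = 0.836), and 0.0016 with that covariate. All 3 genes of this group had fitted differences below 0 in both comparisons with control, which share their control libraries. So did 35 of 48 in each, beside 48.6% and 48.2% of all genes.

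In single libraries several of the genes stood apart together. For this description a library was said to stand apart where its CPM was at least 1.4-fold above or below the mean of the other 3 of its group. In overexpression replicate 2, 6 of 48 genes were that far above (Syt2, Vamp1, Cplx1, Snap25, Rims3 and Syt12) and 4 below. These are 12.5% and 8.33% of the 48, beside 4.06% and 10.7% of all genes tested in that library. The other 11 libraries had 0 to 3 of the 48 above. Vamp1, used by fast-firing neurons and chosen after its values were seen, had 81.7, 178, 89.9 and 111 CPM in overexpression, 98.4, 111, 93.5 and 88.4 CPM in knockdown and 101, 114, 135 and 109 CPM in control libraries. Cplx1, likewise chosen, had 439, 786, 482 and 653 CPM in overexpression, 559, 624, 486 and 471 CPM in knockdown and 478, 592, 601 and 560.1 CPM in control libraries. In both, overexpression replicate 2 was the highest of 12. Pvalb, the calcium buffer that marks fast-firing interneurons, likewise chosen, had 55.7 CPM in the same library, against 17.5 to 35.6 CPM in the other 11. Of the other interneuron markers, Lamp5 (244 CPM) and Kcnc1 (239 CPM) were also highest in that library, and Sst (162 CPM) was lowest. Gad1, Gad2, Slc32a1, Vip and Erbb4 were neither highest nor lowest in it. The promoter windows of Syt2, Vamp1 and Cplx1 printed above share the GC box, as most windows of the 48 genes do.

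Sv2c and Doc2b were highest where the striatal markers were highest. Within each group, the library with the highest summed striatal markers was also the highest in Sv2c and in Doc2b. Syt6 was highest in that library in overexpression and control, but not in knockdown. There it had 59.2 CPM in replicate 2, with a striatal sum of 479 CPM, and 41.7 CPM in replicate 3. In overexpression replicate 4 the striatal markers summed to 1499 CPM, with Sv2c at 71.1 and Doc2b at 46.4 CPM. In knockdown replicate 3 they summed to 1326 CPM, with Sv2c at 43.0 and Doc2b at 44.9 CPM, and in control replicate 4 to 1178 CPM, with Sv2c at 37.4 and Doc2b at 29.0 CPM. The other 9 libraries had striatal sums of 255 to 802 CPM, Sv2c of 16.4 to 33.1 CPM and Doc2b of 13.3 to 30.9 CPM. These are values from the same libraries set side by side, and the part of tissue next to the cortex in them was not tested. Knockdown replicate 4 had the lowest striatal sum of all and was the library in which most genes, 5 of 48, were at least 1.4-fold below the other 3 of the group (Syt6, Sv2c, Syt2, Cplx3 and Rab3b), a count shared by overexpression replicate 3. That is 10.4% of the 48, beside 7.03% of all genes in knockdown replicate 4 and 4.63% in overexpression replicate 3.

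**Figure D4:**
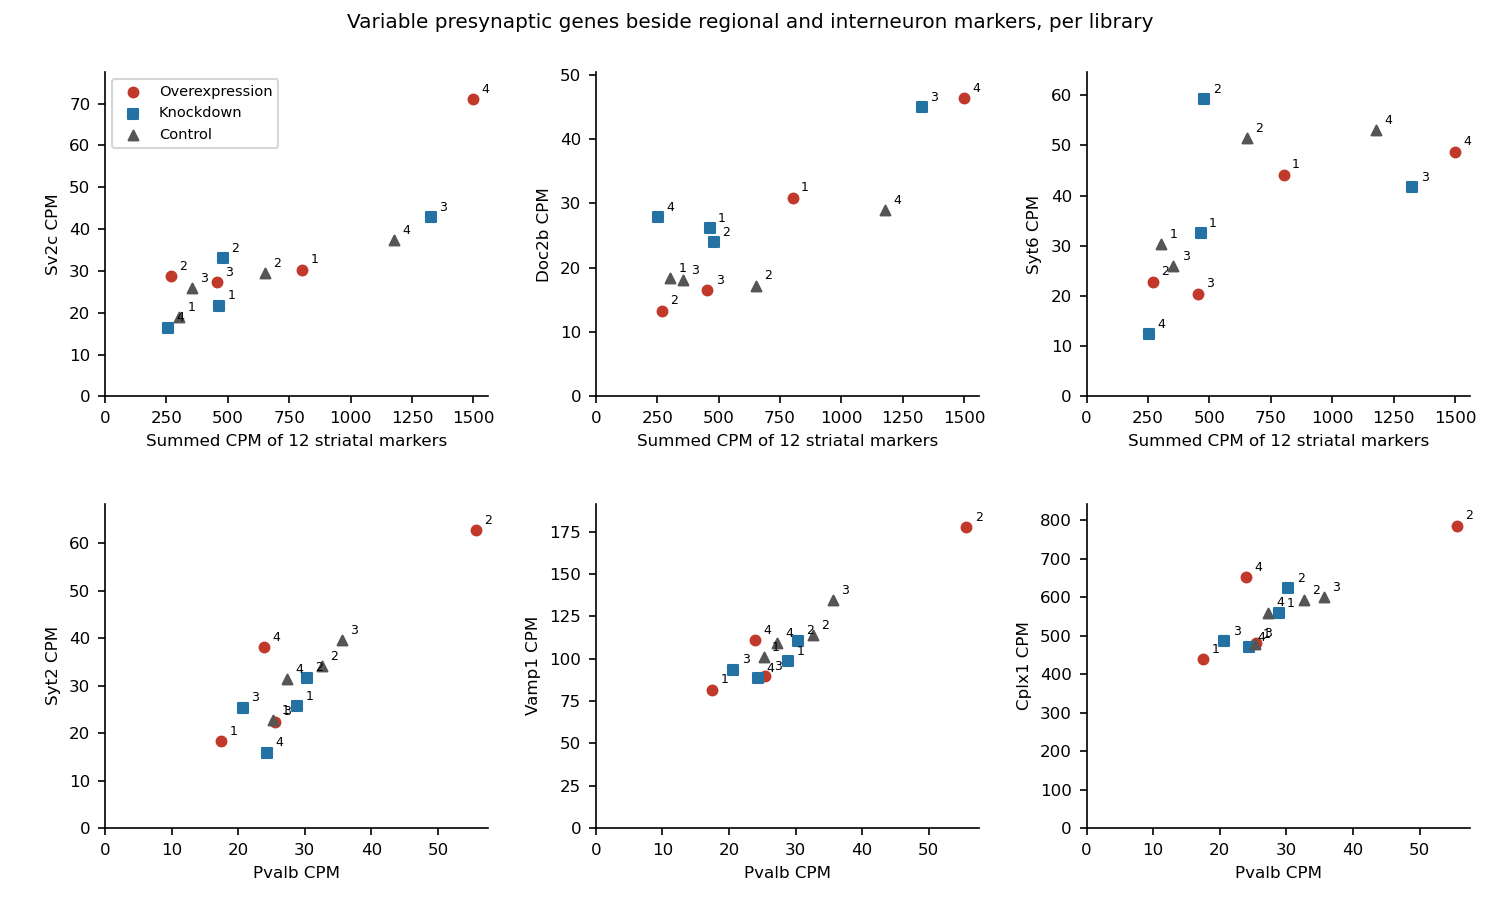
CPM of Sv2c, Doc2b and Syt6 against the summed CPM of 12 striatal markers (upper row), and of Syt2, Vamp1 and Cplx1 against Pvalb CPM (lower row), with each library shown by its group and replicate number. Overexpression replicate 4 is highest for Sv2c and the striatal sum, and overexpression replicate 2 is highest for Syt2, Vamp1, Cplx1 and Pvalb.

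The make-up of the families by paralog was compared as the share of one gene in the summed TPM of those members of its family that are among the 48, so that relatives such as Syngr2 and Rims4 do not enter, and in which the scaling between libraries cancels. In 10 families and 3 comparisons, 0 of 30 two-sided exact permutation tests reached p below 0.05, with 0.0286 the smallest p that 4 against 4 libraries allow. The smallest exact p was 0.0857, in 2 tests, and all adjusted values over the 30 tests were 0.696 or higher. The share of Unc13a was 72.0 ± 2.22% in overexpression and 74.9 ± 1.23% in control libraries (SD, n = 4 each). The share of Vamp1 beside Vamp2 was 5.43 ± 0.528% in knockdown and 6.38 ± 0.918% in control libraries (SD, n = 4 each). Over all 12 libraries, Syp made up 90.9 ± 1.37% of Syp, Sypl and Synpr, Syngr1 67.8 ± 1.91% of Syngr1 and Syngr3, and Rims1 40.6 ± 2.21% of Rims1, Rims2 and Rims3 (SD).

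**Figure D5:**
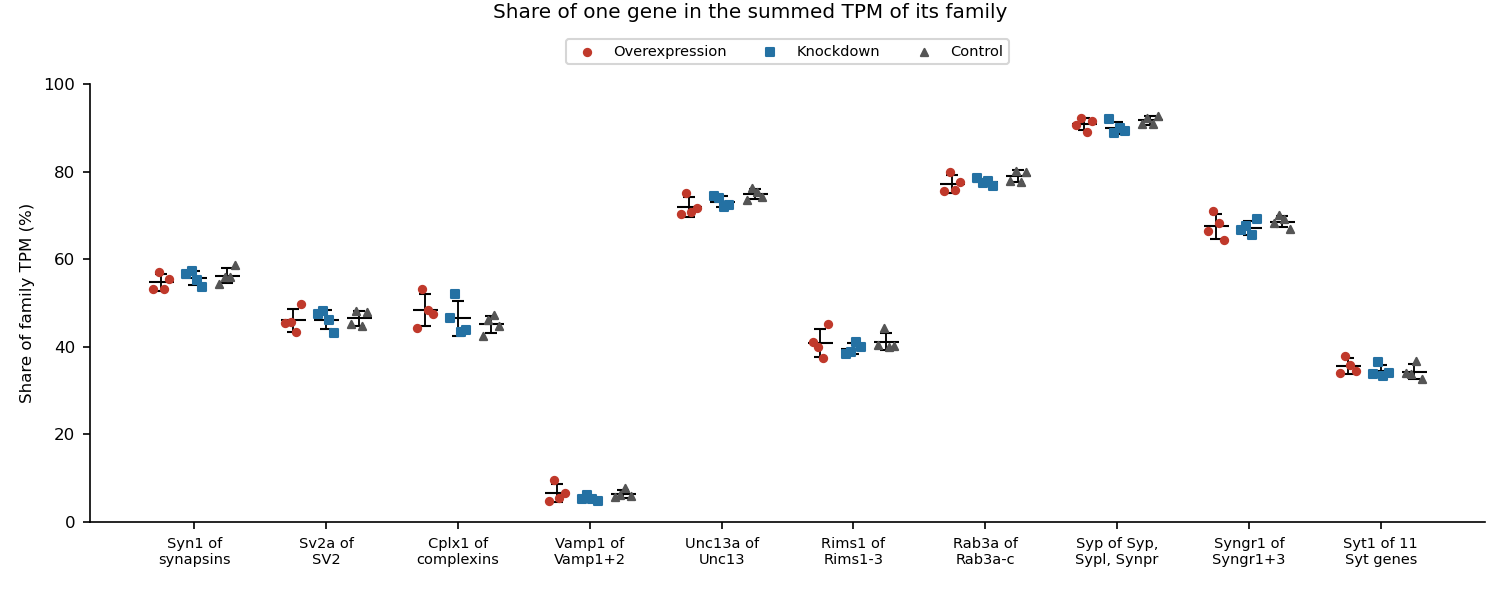
Share of 1 gene in the summed deposited TPM of the members of its family among the 48 genes, in percent, for 10 families in all 12 libraries, with the group mean and SD (n = 4 each). The groups overlap within each family, with means over 12 libraries from 6.16% for Vamp1 to 90.9% for Syp.

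Other genes of the pathway were counted in the same way. Of 58 further genes of docking and fusion, vesicle filling and endocytosis, 58 were tested and 0 passed in each comparison by edgeR. Below an unadjusted p of 0.05 were 4 of 58 (6.90%) in overexpression against control, beside 6.26% of all genes, 2 (3.45%) in knockdown against control, beside 5.68%, and 1 (1.72%) in overexpression against knockdown, beside 5.1%. Ranges lay wholly higher in 2 of 58 (3.45%) in overexpression against control, beside 1.88% of all genes, and in 1 (1.72%) in knockdown against control, beside 2.78%, and these were Syt14 and Rab3d in the first and Rab3d in the second. Their median log2 differences were -0.04, -0.03 and -0.01 in that order. Syt14, a synaptotagmin relative that does not bind calcium, had 22.6, 21.5, 19.7 and 20.2 CPM in overexpression, 19.3, 19.6, 20.6 and 18.7 CPM in knockdown and 18.6, 15.4, 19.5 and 17.2 CPM in control libraries. All 4 overexpression libraries were above all 4 control libraries, and the log2 difference was 0.25 ± 0.08 (SE; edgeR adjusted p = 0.626). Rab3d, a Rab3 relative best known from secretory cells, had 12.2, 11.98, 12.2 and 13.3 CPM in overexpression, 13.1, 13.2, 12.2 and 11.9 CPM in knockdown and 11.3, 10.9, 11.1 and 11.3 CPM in control libraries, so both Ttr vector groups lay above the control range. Its log2 difference was 0.16 ± 0.07 in overexpression against control (edgeR adjusted p = 0.786) and 0.18 ± 0.07 in knockdown against control (edgeR adjusted p = 0.83).

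Further genes of that list with small unadjusted p did not pass either. Atp6v0c, a subunit of the proton pump that energises vesicle filling, had 61.2, 67.1, 54.4 and 52.5 CPM in overexpression, 72.5, 57.03, 56.8 and 64.5 CPM in knockdown and 62.5, 70.98, 63.9 and 84.3 CPM in control libraries. Its log2 difference in overexpression against control was -0.26 ± 0.11 (edgeR adjusted p = 0.789). Ppfia2, a liprin that organises the active zone, had 116, 118, 116 and 104 CPM in overexpression, 116, 124, 111 and 129 CPM in knockdown and 117, 91.6, 113 and 97.3 CPM in control libraries, with a log2 difference of 0.20 ± 0.08 in knockdown against control (edgeR adjusted p = 0.843). The clathrin adaptor subunit gene Ap2s1 had 104, 106, 100.4 and 101 CPM in overexpression, 127, 107, 104 and 121 CPM in knockdown and 111, 123, 103 and 120.2 CPM in control libraries. Its partner Ap2b1 had 448, 444, 403 and 419 CPM in overexpression, 474, 419.8, 461 and 474 CPM in knockdown and 432, 437, 464 and 434 CPM in control libraries. The groups overlapped in all 3 comparisons in each of these 4 genes. In overexpression against knockdown the log2 differences of Ap2s1 and Ap2b1 were -0.16 ± 0.07 and -0.09 ± 0.06 (edgeR adjusted p = 0.967 and 0.974).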

How the data were processed

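Poly(A) RNA of 12 prefrontal cortex samples was sequenced, 4 for each of 3 viruses. A directional kit and adaptors with molecular identifiers were used on 500 ng of input RNA, per the labels' protocols. Per the submitters' processing notes, which give no roles, the tools included featureCounts, UMI-tools, DESeq2 and Bcl2fastq 2.20.0.422, on the build GRCm38 (mm10). The aligner, annotation release, strand setting and handling of the identifiers were not given in the sources used here. The authors deposited whole-number counts per gene that were not normalized, TPM values, and variance-stabilised values on a log2 scale whose transformation is not stated. The deposited TPM equalled the counts over one length per gene after scaling (100% of values of 16476 genes within 0.01 on the log2 scale). Of 55401 identifiers 55141 matched a symbol, and the other 260 held 0.00474% of counts.

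The 48 genes, the 58 further presynaptic genes, the marker lists and the tests were chosen with earlier results of these data known. Counts were tested in edgeR 4.0.16 (R 4.3.3) with its quasi-likelihood test, using TMM factors, the default expression filter, all 12 libraries in 1 fit of 3 group means, and Benjamini-Hochberg adjustment over 18289 genes with a threshold of 0.05. Each contrast is written with the Ttr vector first, or overexpression over knockdown, so a positive log2 difference is higher in the group named first. CPM used the TMM factors. Genes named with every library's value were the 8 with the smallest p per comparison, the 5 highest and 5 lowest in TPM, the 4 with the largest within-group SD, and the 3 further presynaptic genes with the smallest p per comparison, of which 1 is not reported here. Other genes appear by level within their family or are marked in the text as picked with their values known. Paralog shares were compared by two-sided exact permutation tests (scipy 1.17.1). The steps were tested on simulated counts.

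Alternatives were DESeq2 size factors, no filter, DESeq2 1.42.0, limma-voom (limma 3.58.1), a fit to the 2 groups of a comparison alone, a block for the replicate number, limma on log2(TPM + 1) and on the variance-stabilised values, and each library left out. A striatal and a vessel wall and meningeal score as covariates were chosen after seeing the data. Within groups, every pair of libraries differed by more than sampling noise (chi-square per degree of freedom 5.44 to 28.7 over 18 pairs). Promoter sequences are from RefSeq (GRCm38.p6) and gene coordinates from GENCODE on GRCm38. Figures were drawn with matplotlib 3.10.9 in Python 3.11.15.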

Additional observations from a re-analysis of the deposited data

Results flagged for a closer look

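In 12 of 144 sets of 4 libraries (48 genes in 3 groups), 1 library lay far from the other 3 by Dixon's test at the 95% level, which chance alone marks in about 1 of 20 sets. The same count over all genes tested is not given here, so 12 of 144 is not a result about these 48 genes. In overexpression replicate 4, Syn2 was low at 547 CPM, with the other 3 libraries at 630 to 639 CPM, and Sv2c was high at 71.1 CPM, with the others at 27.3 to 30.3 CPM. In overexpression replicate 3, Sypl was high at 61.0 CPM (others 46.6 to 48.3 CPM) and Sv2a low at 459 CPM (others 520 to 532 CPM). In overexpression replicate 2, Rims1 was high at 314 CPM (others 235 to 246 CPM) and Rph3a high at 704 CPM (others 509.5 to 517 CPM).

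In knockdown replicate 1, Dnm1 was high at 1332 CPM (others 1141 to 1159 CPM) and Amph high at 256 CPM (others 238 to 241 CPM). In knockdown replicate 3, Unc13c was high at 40.2 CPM (others 26.6 to 28.3 CPM). In control replicate 4, Doc2b was high at 29.0 CPM (others 17.2 to 18.4 CPM) and Stxbp5 low at 132 CPM (others 142 to 144 CPM). In control replicate 1, Syt12 was low at 41.7 CPM (others 50.0 to 51.7 CPM).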

How the results depend on the processing

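In all alternatives run, 0 of the 48 genes and 0 of the 58 further presynaptic genes passed. The 30 paralog shares were recomputed from CPM and with each library left out, and 0 passed, although their exact tests can hardly reach an adjusted p of 0.05. The lowest adjusted p of any of the 48 was 0.107, 0.327 and 0.356 in overexpression against control, knockdown against control and overexpression against knockdown. Of 528 values of named genes under alternatives, 8 turned in direction, all with the vessel wall and meningeal score as covariate. In overexpression against control these were Cplx3 (0.16), Syt5 (0.070), Amph (0.0016), Rph3a (0.055), Vamp2 (0.037), Syt13 (0.0030) and Syp (0.071), and in overexpression against knockdown Syt5 (0.018). The median of the 48 was 0.022 and 0.063 under that covariate in these comparisons. The score lay wholly higher in overexpression than in both other groups, so the fit cannot tell score and overexpression vector apart. With 1 library left out the median of the 48 ranged from -0.12 to -0.05 in overexpression against control, -0.09 to -0.03 in knockdown against control and -0.05 to 0.03 in overexpression against knockdown. The cause was not tested.

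Counts over all genes, 1 in each comparison, moved more. In overexpression against control they were 20 without a filter, 38 with DESeq2, and 0 with limma-voom, with only the 2 groups compared and with the vessel wall score. In knockdown against control they were 22 without a filter, 43 with DESeq2, 2 with only the 2 groups, 4 with the striatal score, and 0 with the replicate block, with TPM and with the vessel wall score. In overexpression against knockdown they were 3 with DESeq2, 0 with limma-voom and 2 with the replicate block. With 1 library left out they were 0 to 3, 0 to 10 and 0 to 2. The replicate numbers share only a number: deviations of same-numbered libraries correlated at -0.34 to 0.16, and those of other pairs at -0.28 to 0.31. For the genes of synaptic vesicle and release machinery, the lowest count in any library was 176. The median of their within-group SD was 0.123 on the log2 scale, with 4 libraries a group. Whether depth or the spread between libraries limited the calls was not tested.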
